A study of Mus musculus with 10 samples.

Results

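The 10 germ-cell heat shock genes described here were chosen by name, as chaperones and heat shock factors known from the male germ line: Hspa1l, Hspa2, Hspa4l, Dnajb3, Dnajb7, Dnajb8, Dnajb13, Hsf1, Hsf2 and Hsf5. All 10 were found among the 55421 genes of the deposited count files, and 9 of them were among the 20240 genes tested between genotypes. Testis RNA came from postnatal day 21 (P21) mice, 3 Mov10+/+ (wild type; replicates 1, 2 and 3) and 3 Mov10-/- (replicates 2, 3 and 4), each library from 1 pair of testes. The knockout allele lacks exons 8 to 14 of Mov10, an RNA helicase gene, and was made with Actb-Cre, which is active throughout the body, so germ cells and somatic cells alike lack it. The mice were of a hybrid strain background, and Mov10-/- males that survive to adulthood are fertile. Whole testes were used, and in such bulk samples fewer cells of a type and less RNA per cell cannot be told apart.

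HSP70 proteins hold unfolded or partly folded proteins in a cycle driven by ATP. J-domain proteins of the DNAJ family bring clients to them and speed ATP hydrolysis, HSP110 proteins such as HSPA4L exchange the nucleotide, and heat shock factors (HSFs) bind DNA at heat shock elements to switch chaperone genes on. The testis has its own forms of each. HSPA2 appears in meiotic spermatocytes and is needed for male meiosis, whereas HSPA1L and DNAJB3 are known from spermatids, the haploid cells that follow. In the first wave of spermatogenesis spermatids are only beginning to accumulate at this age.

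Levels are given in CPM, the reads of a gene for every 1000000 reads on genes, after TMM scaling between libraries. The 6 RNA-seq libraries held between 5083407 and 9230540 reads on genes, which made 1 read worth 0.108 to 0.197 CPM before that scaling. Mov10-/- replicate 3 was the shallowest, with 57.2% of its reads not aligned against 26.5% to 35.9% in the others. Mov10 itself was at 114, 96.8 and 120 CPM in wild type and 29.2, 26.7 and 26.8 CPM in Mov10-/- testes, lower in every library labelled as the knockout. Wild type replicate 2 stood apart in spermatid genes: its summed level of 12 elongating spermatid markers was 872 CPM, against 328 and 187 CPM in wild type replicates 1 and 3. Values without wild type replicate 2 are given beside the larger fold changes and plotted for the tested genes.

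Among these genes, 3 were several-fold lower in every Mov10-/- testis than in every wild type testis: the HSP70 gene Hspa1l and the J-protein genes Dnajb7 and Dnajb8. Dnajb13, the J protein of the sperm flagellum, was also below wild type in all 3 libraries, by a smaller amount. The spermatocyte chaperone Hspa2, the J-protein gene Dnajb3 and the factors Hsf1, Hsf2 and Hsf5 overlapped between genotypes. The quasi-likelihood test of edgeR, adjusted by Benjamini-Hochberg over all genes tested, called 0 of the 9 at an adjusted p under 0.05 and a fold over 2, where it called 0.00494% of all genes tested, which is Mov10 alone. At an unadjusted p under 0.05 the same test had 4 of the 9 lower (Hspa1l, Dnajb7, Dnajb8 and Dnajb13), where it had 11.9% of all genes lower, and 0 higher, where it had 5.58% of all genes higher. The same 4 genes had no overlap between genotypes, all in the lower direction, where 14.1% of all genes tested were lower in this way, and 0 were higher, where 11.9% of all genes were. Dnajb7 and Dnajb8 passed the filter on low values mainly through the wild type libraries, in which they were high, so they had to differ and their place in these counts supports nothing. Of the 7 members above the filter's minimum in all 6 libraries, 2 (Hspa1l and Dnajb13) were lower at an unadjusted p under 0.05, and the same 2 were lower without overlap.

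**Figure D1:**
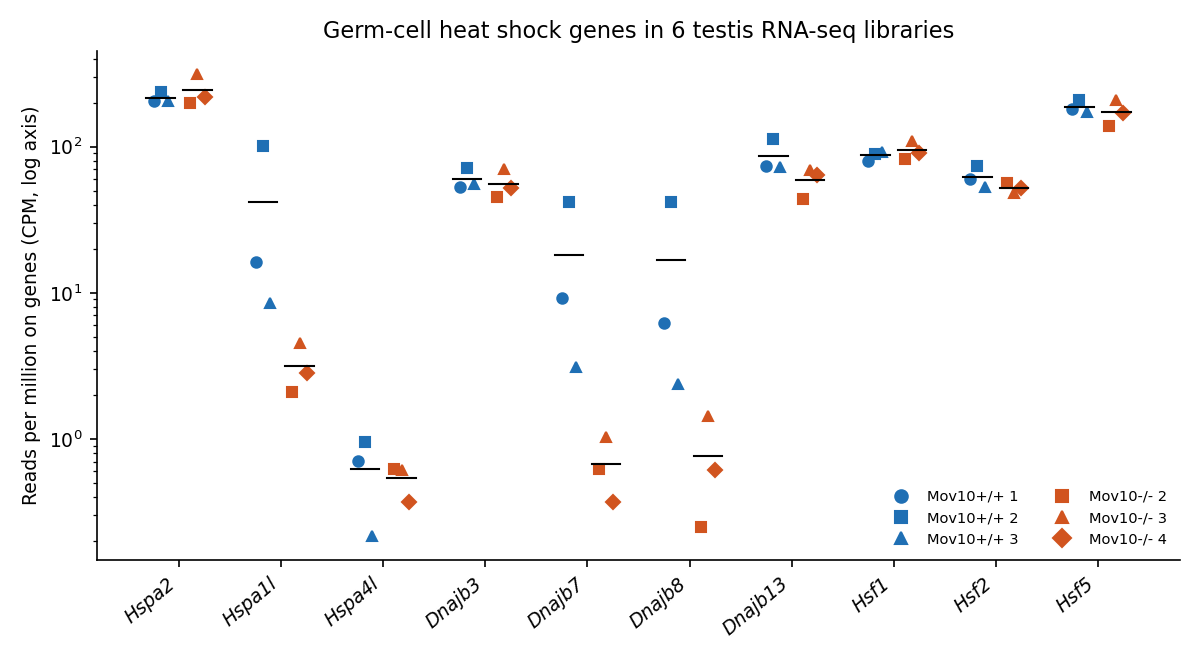
Level (CPM, log axis) of the 10 germ-cell heat shock genes in each RNA-seq library. Blue symbols are the 3 Mov10+/+ libraries, orange symbols the 3 Mov10-/- libraries, the symbol shape is the replicate number and black bars are group means. Hspa1l, Dnajb7 and Dnajb8 spread widely in wild type, with replicate 2 highest, and lie lower in every Mov10-/- library, while Hspa2, Dnajb3 and the Hsf genes overlap.

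Hspa2 (ENSMUSG00000059970, chromosome 12 of mm10, 76404176 to 76406938, plus strand) encodes the HSP70 of spermatocytes and had the highest level per length of exon of the 10 genes. Its level was 204, 237 and 205 CPM in wild type replicates 1, 2 and 3, and 198, 315 and 218 CPM in Mov10-/- replicates 2, 3 and 4. The groups overlapped, and the highest value belonged to Mov10-/- replicate 3. The log2 fold change was 0.17 with a standard error (SE) of 0.18 (adjusted p = 0.635, edgeR's quasi-likelihood test, Benjamini-Hochberg adjusted), and it was -0.050 without Mov10-/- replicate 3, so that neither direction was resolved.

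Hspa1l (ENSMUSG00000007033, chromosome 17, 34972703 to 34979285, plus strand) encodes the HSP70 of spermatids and lies beside the heat-inducible genes Hspa1a and Hspa1b. It had 16.1, 102 and 8.49 CPM in wild type replicates 1, 2 and 3, and 2.11, 4.52 and 2.84 CPM in Mov10-/- replicates 2, 3 and 4. Every Mov10-/- library was below every wild type library, and wild type replicate 2 exceeded the lowest wild type library 12.0-fold. The group means were 42.1 ± 51.7 CPM in wild type and 3.16 ± 1.24 CPM in Mov10-/- testes (SD, n = 3 each), and the fitted log2 fold change was -3.76 with an SE of 0.96. Its adjusted p was 0.150 in edgeR's quasi-likelihood test, Benjamini-Hochberg adjusted. Without wild type replicate 2 the log2 fold change was -1.99 and the mean levels were 12.3 and 3.16 CPM. Of the 2472 exon nucleotides of Hspa1l, 1778 are shared with the antisense gene Gm10501 on the other strand. Whether the authors counted by strand is not given in the sources used here, so reads of the shared stretch may have been lost as ambiguous or assigned by strand. Gm10501 itself was at 5.61 to 7.30 CPM in all 6 libraries, with overlapping groups.

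Hspa4l (ENSMUSG00000025757, chromosome 3, 40744495 to 40796103, plus strand), the HSP110 member, had 6, 7 and 2 reads in wild type and 5, 3 and 3 reads in Mov10-/- libraries. At most 0.96 CPM was reached in any library, so it did not pass the filter and was not tested. The level cannot be read as absence of the transcript. It lies in an unbroken run of 7 protein-coding genes (40531286 to 40938138 on chromosome 3) of which none had more than 12 reads in any RNA-seq library, and which includes Plk4, a centriole kinase gene used by dividing cells. The next genes on one side, Larp1b and Pgrmc2, had 719 to 1302 and 328 to 644 reads. The cause of this gap was not tested.

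The J-domain genes divided into those that differed by several fold and those that did not. Dnajb3 (ENSMUSG00000081984, chromosome 1, 88204732 to 88205782, minus strand) is a gene of a single exon that lies inside introns of the Ugt1a cluster on the opposite strand, and its protein is known from the spermatid. It had 53.1, 71.9 and 55.9 CPM in wild type and 45.0, 70.3 and 52.5 CPM in Mov10-/- libraries. The groups overlapped over nearly their whole range. The log2 fold change was -0.11 (SE 0.20, adjusted p = 0.790, edgeR's quasi-likelihood test, Benjamini-Hochberg adjusted), and it was 0.033 without wild type replicate 2 and 0.023 without Mov10-/- replicate 2.

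Dnajb7 (ENSMUSG00000047108, chromosome 15, 81406926 to 81408299, minus strand) is likewise a gene of a single exon, within an intron of Xpnpep3 on the opposite strand. It had 9.19, 41.9 and 3.11 CPM in wild type and 0.62, 1.03 and 0.37 CPM in Mov10-/- libraries, from 78, 306 and 29 reads against 5, 5 and 3 reads. The 3 Mov10-/- values lay below the lowest wild type value. The log2 fold change was -4.78 (SE 1.04), with an adjusted p of 0.150 in edgeR's quasi-likelihood test, Benjamini-Hochberg adjusted. Without wild type replicate 2 the mean was 6.15 CPM in wild type and 0.67 CPM in Mov10-/- testes, 9.14-fold lower against 26.9-fold with it.

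Dnajb8 (ENSMUSG00000048206, chromosome 6, 88222268 to 88254415, plus strand) encodes a J protein that keeps aggregation-prone proteins soluble. It had 6.24, 42.0 and 2.36 CPM in wild type and 0.25, 1.44 and 0.62 CPM in Mov10-/- libraries, from 53, 307 and 22 reads against 2, 7 and 5 reads. Again the groups did not overlap and wild type replicate 2 was highest. The log2 fold change was -4.54 (SE 1.20, adjusted p = 0.150, edgeR's quasi-likelihood test, Benjamini-Hochberg adjusted), and -2.59 without wild type replicate 2. Both Dnajb7 and Dnajb8 passed the filter of more than 1 CPM in at least 3 of 6 libraries through the 3 wild type libraries. That filter was applied before TMM scaling. On that scale Dnajb8 exceeded 1 CPM in only 1 Mov10-/- library, replicate 3, and Dnajb7 in none. The antisense gene 1700031F10Rik shares 525 exon nucleotides with Dnajb8, and had 15 reads in wild type replicate 2 and at most 1 in any other RNA-seq library.

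Dnajb13 (ENSMUSG00000030708, chromosome 7, 100501716 to 100514960, minus strand) encodes a J protein of the radial spokes, the arms that face the central pair of the flagellar axoneme. It had 74.0, 112 and 72.9 CPM in wild type and 43.9, 69.7 and 63.8 CPM in Mov10-/- libraries. The groups did not overlap, although the distance between Mov10-/- replicate 3 and wild type replicate 3 was small. The log2 fold change was -0.55 (SE 0.23, unadjusted p = 0.0422, adjusted p = 0.266, edgeR's quasi-likelihood test, Benjamini-Hochberg adjusted). Leaving out wild type replicate 2 brought it to -0.32. It shares 305 exon nucleotides with Ucp2 on the opposite strand, whose log2 fold change was 0.29.

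The heat shock factors overlapped between genotypes. Hsf1 (ENSMUSG00000022556, chromosome 15, 76477422 to 76501913), the factor that answers heat in all cells, had 80.3, 88.7 and 92.4 CPM in wild type and 82.4, 110 and 90.8 CPM in Mov10-/- libraries (log2 fold change 0.11, SE 0.13). Hsf2 (ENSMUSG00000019878, chromosome 10, 57486385 to 57513135), which acts in spermatocytes and spermatids, had 60.1, 73.4 and 53.0 CPM against 56.1, 48.5 and 51.8 CPM (-0.25, SE 0.15). Hsf5 (ENSMUSG00000070345, chromosome 11, 87617164 to 87659542), a factor of meiotic spermatocytes, had 181, 209 and 173 CPM against 139, 207 and 170 CPM (-0.13, SE 0.15). The lowest Hsf5 value was that of Mov10-/- replicate 2, and without it the log2 fold change was 0.0064. Their adjusted p lay at 0.429 for Hsf2, 0.685 for Hsf1 and 0.697 for Hsf5 in edgeR's quasi-likelihood test, Benjamini-Hochberg adjusted.

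**Figure D2:**
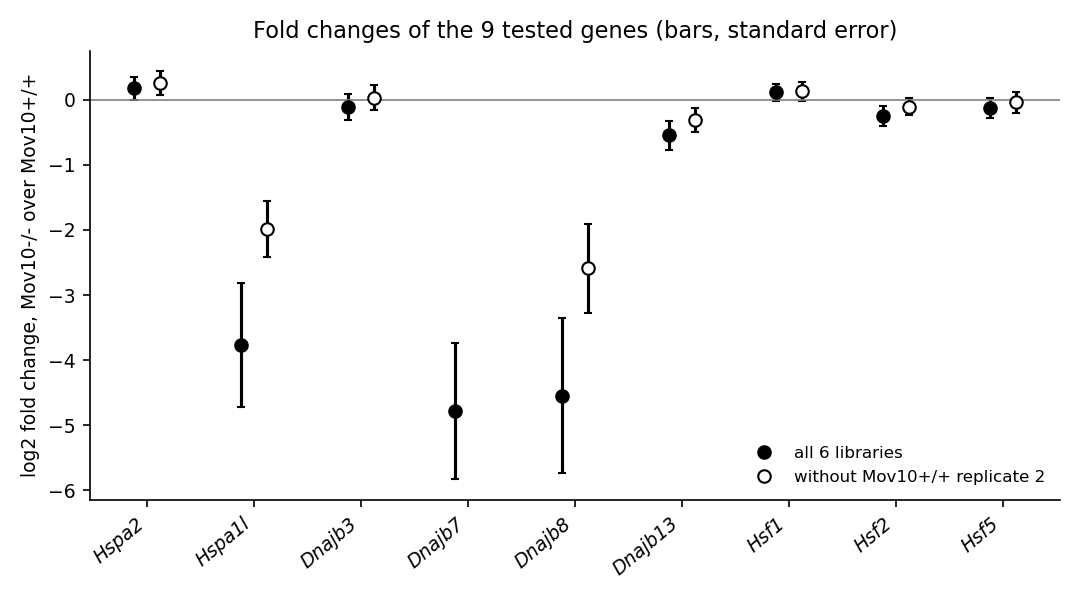
Log2 fold change, Mov10-/- over Mov10+/+, of the 9 tested genes with all 6 libraries (filled circles) and without Mov10+/+ replicate 2 (open circles), and bars for the standard error from edgeR's quasi-likelihood fit. Hspa1l moves from -3.76 to -1.99 and Dnajb8 from -4.54 to -2.59. Dnajb7 has no open circle because it did not pass the filter without that library.

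The number of members called depended on the test. DESeq2 called Hspa1l, Dnajb7 and Dnajb8, 3 of the 9, as lower with an adjusted p under 0.05 and a fold over 2, where it called 4.88% of all genes tested as lower. The exact test of edgeR called the same 3 genes (5.09% of all genes), as did its likelihood ratio test (5.45% of all genes), whereas limma's voom called 0 of the 9 and had Hspa1l, Dnajb7, Dnajb8 and Dnajb13 lower at an unadjusted p under 0.05, where it had 10.9% of all genes lower. Among the 7 genes above the filter in all libraries DESeq2, the exact test and the likelihood ratio test each called 1, Hspa1l. The adjusted p in DESeq2 was 0.0130 for Hspa1l, 0.000103 for Dnajb7 and 0.000924 for Dnajb8. With wild type replicate 2 left out, 2 of the 8 genes still tested, Hspa1l and Dnajb8, were lower at an unadjusted p under 0.05 by edgeR's quasi-likelihood fit, against 6.47% of all genes tested there. Dnajb8 passed the filter there through the remaining wild type libraries and 1 Mov10-/- library, so its place in this count again supports nothing. With the shallow Mov10-/- replicate 3 left out, Hspa1l, Dnajb7, Dnajb8 and Dnajb13 were lower at that threshold, against 11.7% of all genes tested there. Leaving out Mov10-/- replicate 2 or 4 kept 3 of these, without Dnajb13, against 8.15% and 8.75% of all genes tested there. Dnajb7 and Dnajb8 again passed the filter mainly through the wild type libraries.

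The comparison of Hspa1l and Dnajb3, named as spermatid chaperones, with the spermatocyte chaperone Hspa2 was made within each library, as reads of Hspa1l or Dnajb3 for every 100 reads of Hspa2, which needs no scaling between libraries. Hspa1l stood at 7.91, 42.8 and 4.14 reads for every 100 Hspa2 reads in wild type replicates 1, 2 and 3, and at 1.07, 1.44 and 1.30 in Mov10-/- replicates 2, 3 and 4. The 3 Mov10-/- libraries lay close together and below all wild type libraries, which spread widely. The mean log2 ratio was -3.16 ± 1.74 in wild type and -6.31 ± 0.22 in Mov10-/- testes (SD, n = 3 each), a difference of -3.15, or 8.89-fold. The exact two-sided permutation test gave p = 0.1 (0.1 after Benjamini-Hochberg adjustment over the 2 ratios), the smallest p that 3 against 3 can give. Without wild type replicate 2 the difference was -2.19.

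Dnajb3 stood at 26.1, 30.3 and 27.2 reads for every 100 Hspa2 reads in wild type and at 22.7, 22.3 and 24.1 in Mov10-/- libraries. Here too every Mov10-/- library was below every wild type library, but the geometric mean was lower by 17.1%, where that of Hspa1l was lower by 88.8%. The mean log2 ratio was -1.85 ± 0.11 in wild type and -2.12 ± 0.06 in Mov10-/- testes (SD, n = 3 each), a difference of -0.27 (exact two-sided permutation test, p = 0.1, also 0.1 after adjustment over the 2 ratios). The ratio separated the genotypes although neither Dnajb3 nor Hspa2 did so alone, since both were high in Mov10-/- replicate 3 and in wild type replicate 2. The ratio does not show which of the 2 genes differed.

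**Figure D3:**
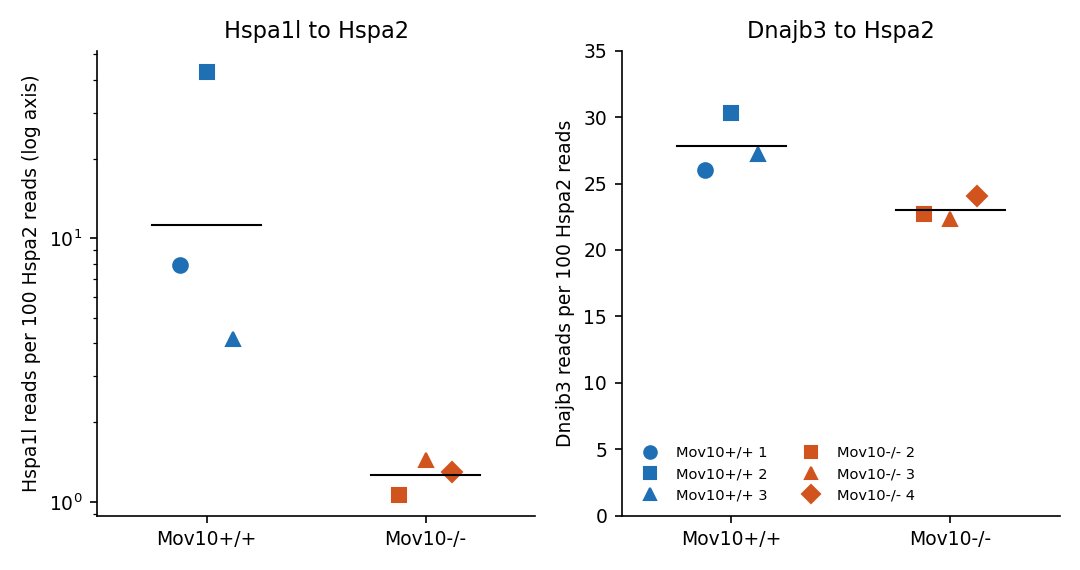
Reads of Hspa1l (left, log axis) and Dnajb3 (right, linear axis from 0) for every 100 reads of Hspa2 in each library. Symbols are libraries by replicate number and black bars are geometric means of 3 libraries. Hspa1l lies between 4.14 and 42.8 in wild type and between 1.07 and 1.44 in Mov10-/- testes, and Dnajb3 between 26.1 and 30.3 and between 22.3 and 24.1.

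Markers of other germ cells moved with these results. Of the 14 round spermatid markers, 9 were lower in every Mov10-/- than in every wild type library and 0 higher. That share was 14.1% over all genes tested for lower and 11.9% for higher. The markers had a median log2 fold change of -2.21 against 0.032 over all genes tested. Their summed level was 497 to 1225 CPM in wild type and 255 to 539 CPM in Mov10-/- libraries. Of the 12 elongating spermatid markers, 11 were tested and 6 were lower without overlap (median -2.61), and their summed level was 187 to 872 CPM in wild type and 42.7 to 167 CPM in Mov10-/- libraries, with Tnp2 at 0 reads in 1 Mov10-/- library. With any wild type library left out 9 were tested, and with any Mov10-/- library left out 11. Some thus passed the filter only through the wild type libraries. Those had to be lower, so their place in this count and median supports nothing. Without wild type replicate 2 the medians were -1.50 for the 13 round spermatid markers and -1.75 for the 9 elongating spermatid markers that were then tested. The 10 pachytene spermatocyte markers had a median of -0.10 and 0 without overlap in either direction, with summed levels of 1285 to 1489 CPM and 1114 to 1576 CPM. The libraries ranked in the same order for Hspa1l, Dnajb8, Dnajb13 and the elongating spermatid sum: wild type replicates 2, 1 and 3, then Mov10-/- replicates 3, 4 and 2. The order for Hspa2 was that of the pachytene spermatocyte sum, with Mov10-/- replicate 3 first, wild type replicate 2 second and Mov10-/- replicate 2 last. The part of cell composition in these results was not tested.

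Set against those sums (a comparison chosen after the values were seen, and given without a test), the genes known from spermatids and sperm did not behave as 1 group. For every 100 CPM of the elongating spermatid sum, Hspa1l had 4.92, 11.7 and 4.53 CPM in wild type and 4.94, 2.71 and 4.35 CPM in Mov10-/- libraries, so that the genotypes overlapped on this scale. Dnajb7 (1.66 to 4.81 in wild type, 0.57 to 1.45 in Mov10-/-) and Dnajb8 (1.26 to 4.82 and 0.58 to 0.95) remained lower without overlap, from few reads. For every 100 CPM of the round spermatid sum all 3 were lower without overlap, Hspa1l at 1.71 to 8.30 in wild type and 0.81 to 0.84 in Mov10-/- libraries. Dnajb13 overlapped on this scale, at 9.17 to 14.7 and 12.9 to 18.2, and for every 100 CPM of the elongating spermatid sum it was higher without overlap, at 12.9 to 38.9 in wild type and 41.7 to 103 in Mov10-/- libraries. Dnajb3 was higher, at 5.87 to 11.2 CPM for every 100 CPM of the round spermatid sum in wild type and 13.0 to 17.6 in Mov10-/- libraries, since its own CPM overlapped between genotypes while the spermatid sum was lower in most Mov10-/- libraries. For every 100 CPM of the pachytene spermatocyte sum, Hspa2 had 15.9, 15.9 and 15.8 CPM in wild type and 17.8, 19.97 and 16.8 CPM in Mov10-/- libraries, and Dnajb3 had 4.13 to 4.83 and 4.04 to 4.46. Dnajb3 is named a spermatid chaperone, but its range was not that of the spermatid sums. Over the 6 libraries its highest level exceeded its lowest 1.60-fold, near the 1.42-fold of the pachytene sum. The same measure was 4.80-fold for the round and 20.4-fold for the elongating spermatid sum and 48.2-fold for Hspa1l. Hspa2, Hsf1, Hsf2 and Hsf5 were as narrow, at 1.37- to 1.59-fold, so a narrow range does not place a transcript in a cell type.

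**Figure D4:**
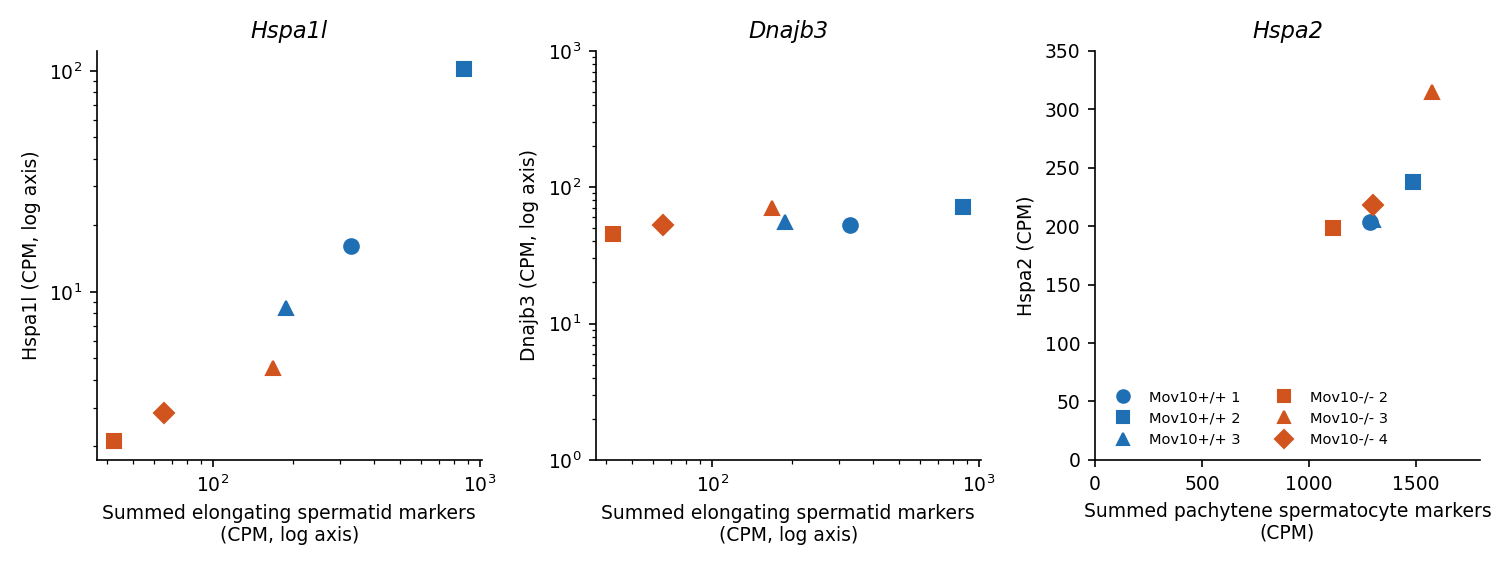
Level of Hspa1l and Dnajb3 against the summed level of 12 elongating spermatid markers (log axes), and of Hspa2 against the summed level of 10 pachytene spermatocyte markers (linear axes from 0), all in CPM, with 1 symbol for each library. Hspa1l climbs with the elongating spermatid sum from 2.11 CPM in Mov10-/- replicate 2 to 102 CPM in Mov10+/+ replicate 2, whereas Dnajb3 stays between 45.0 and 71.9 CPM across the same libraries.

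Lists of other cells moved less than the spermatid lists. Summed levels in wild type and Mov10-/- libraries were 453 to 610 and 583 to 680 CPM for spermatogonia (median log2 fold change 0.21), 948 to 1032 and 1022 to 1090 CPM for early spermatocytes (0.095), and 776 to 937 and 983 to 1144 CPM for Sertoli cells (0.31, 4 of 11 tested genes higher without overlap). They were 329 to 590 and 438 to 643 CPM for Leydig cells (0.25), 364 to 438 and 480 to 576 CPM for peritubular and endothelial cells (0.32, 5 of 8 higher), and 245 to 399 and 306 to 442 CPM for macrophages (0.25). Immediate early genes such as Fos and Egr1, which rise within minutes of handling a tissue, summed to 95.7 to 126 CPM in wild type and 168 to 209 CPM in Mov10-/- libraries, with 4 of 8 higher without overlap and a median of 0.74. The quasi-likelihood test called none of these genes. Over all genes tested, 11.9% were higher without overlap.

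Levels were compared between genes per kilobase of exon (CPM divided by exon length, RPKM), in wild type testes (mean ± SD, n = 3). Hspa2 led with 81.5 ± 7.18 RPKM, followed by Dnajb3 with 57.4 ± 9.66, Hsf5 with 45.1 ± 4.55 and Dnajb13 with 31.6 ± 8.21 RPKM. These 4 did not overlap with their neighbours in the order, except Dnajb13 with the next gene. Hspa1l had 17.0 ± 20.9, Dnajb7 13.2 ± 15.2, Hsf1 12.3 ± 0.87, Dnajb8 12.0 ± 15.5 and Hsf2 6.47 ± 1.08 RPKM, and neighbours from Dnajb13 down to Hsf2 overlapped, so that their order is not resolved. Hspa4l came last with 0.053 RPKM. Exon length joined the exons of all annotated transcripts of a gene (9606 bases for Hsf2, 7099 for Hsf1). A gene whose transcripts differ in exons thus gets a lower level than the length of 1 transcript would give. This order also depends on which exon bases gave the reads. If only the 694 exon bases of Hspa1l that no other gene shares gave them, its level was 60.6 ± 74.5 RPKM (12.2 to 146), second in the order with a range that held those of Hspa2, Dnajb3, Hsf5 and Dnajb13, and that of Dnajb8 was 19.1 ± 24.7 RPKM. The spread over wild type libraries set the genes apart as well: the highest wild type library exceeded the lowest 12.0-fold for Hspa1l, 13.5-fold for Dnajb7 and 17.8-fold for Dnajb8, and only 1.16-fold for Hspa2, 1.15-fold for Hsf1 and 1.35-fold for Dnajb3. Over all tested genes with reads in every wild type library the median of this measure was 1.40, and 287 of 20176 genes (1.42%) exceeded 10-fold. In Mov10-/- testes Hspa1l was at 1.28 ± 0.50 RPKM and Hspa2 at 92.1 ± 23.6 RPKM.

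Promoters of 9 of the 10 genes (all but Hsf1) were found in RefSeq on GRCm38.p6, from 250 bases before to 50 bases after the annotated start. The sequences of the 3 genes that were several-fold lower are printed first, because they moved together, and those of Hspa2 and Dnajb3 after them for contrast. Capitals mark the letters TGACG or their complement CGTCA, the half-site of the cyclic AMP response element (CRE) that CREM, a regulator of spermatid genes, is known to bind.
Hspa1l, chr17:34972453-34972752, plus strand: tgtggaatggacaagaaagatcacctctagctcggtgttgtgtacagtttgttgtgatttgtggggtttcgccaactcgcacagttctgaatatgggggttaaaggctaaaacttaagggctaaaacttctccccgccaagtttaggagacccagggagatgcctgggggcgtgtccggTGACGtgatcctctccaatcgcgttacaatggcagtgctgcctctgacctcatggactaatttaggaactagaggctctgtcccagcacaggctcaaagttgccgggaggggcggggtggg
Dnajb7, chr15:81408224-81408523, minus strand: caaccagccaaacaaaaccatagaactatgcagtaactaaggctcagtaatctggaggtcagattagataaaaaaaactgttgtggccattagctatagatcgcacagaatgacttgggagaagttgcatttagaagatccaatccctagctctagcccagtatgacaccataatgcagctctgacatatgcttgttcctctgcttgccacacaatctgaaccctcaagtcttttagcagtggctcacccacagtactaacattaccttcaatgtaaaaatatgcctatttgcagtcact
Dnajb8, chr6:88222018-88222317, plus strand: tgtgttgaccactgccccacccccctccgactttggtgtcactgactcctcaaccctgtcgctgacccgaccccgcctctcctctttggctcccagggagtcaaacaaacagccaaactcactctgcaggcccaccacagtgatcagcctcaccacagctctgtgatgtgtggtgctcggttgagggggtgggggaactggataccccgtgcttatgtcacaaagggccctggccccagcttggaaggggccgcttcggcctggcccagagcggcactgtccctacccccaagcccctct
Hspa2, chr12:76404120-76404419, plus strand: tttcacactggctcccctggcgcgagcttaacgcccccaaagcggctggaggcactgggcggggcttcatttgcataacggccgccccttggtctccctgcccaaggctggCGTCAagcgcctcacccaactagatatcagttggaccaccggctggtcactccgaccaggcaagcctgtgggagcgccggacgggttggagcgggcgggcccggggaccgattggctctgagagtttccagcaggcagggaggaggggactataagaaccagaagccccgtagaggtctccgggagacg
Dnajb3, chr1:88205699-88205998, minus strand: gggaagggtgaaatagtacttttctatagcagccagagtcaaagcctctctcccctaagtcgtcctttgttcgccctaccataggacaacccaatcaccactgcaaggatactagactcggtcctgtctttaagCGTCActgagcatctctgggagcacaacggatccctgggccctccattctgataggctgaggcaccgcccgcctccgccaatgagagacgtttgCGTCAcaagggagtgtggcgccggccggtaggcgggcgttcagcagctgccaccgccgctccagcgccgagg
The half-site, searched on both strands, lay 71 bases before the start of Hspa1l, 139 before that of Hspa2, and 116 and 22 before that of Dnajb3, and did not occur in the windows of Dnajb7 and Dnajb8. These starts are those of RefSeq. That of Hspa2 (76404370) lies 194 bases inside the gene's span in GENCODE, that of Dnajb3 34 bases and that of Dnajb7 26 bases inside, so that the half-site of Hspa2 and the nearer one of Dnajb3 fall within the GENCODE gene and not before it. Those of Hspa1l and Dnajb8 are the same in both annotations. Of all 32851 promoters of this length, 20.8% held it. The full CRE, TGACGTCA, was in 0 of the 9 windows (1.79% of all promoters). A pair of heat shock element units, GAANNTTC or TTCNNGAA, was present only in Hsf5, 185 bases before the start, where 7.86% and 8.52% of all promoters held the respective letters. A CCAAT box lay in 7 of the 9 windows (37.4% of all promoters), 57 bases before the start of Hspa1l and 39 and 160 bases before that of Dnajb3. These matches describe the letters and do not show binding, and the half-site did not separate the genes that were lower from those that overlapped.

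Beyond the germ-cell genes, 96 other chaperone and heat shock factor genes were listed, of which 94 entered the test. The median of their log2 fold changes was 0.034, against 0.032 over all genes tested. Without overlap between genotypes 11 were lower and 9 higher, where 14.1% and 11.9% of all genes tested were. These shares also stand beside the counts without overlap in each list below. The 9 germ-cell genes had a median of -0.25. None of the 94 was called by the quasi-likelihood test. At an unadjusted p under 0.05 in that test 7 were lower and 3 higher, where 11.9% and 5.58% of all genes tested were. Both lower counts include Dnajc22, which passed the filter only through the wild type libraries, so its place in them supports nothing.

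Among the 12 other HSP70 and HSP110 genes, the median was 0.11. The constitutive HSP70 gene Hspa8 had 91.2, 59.7 and 62.2 CPM in wild type and 94.2, 122 and 91.0 CPM in Mov10-/- libraries, so that the groups overlapped narrowly (log2 fold change 0.52, SE 0.19, adjusted p = 0.225, edgeR's quasi-likelihood test, Benjamini-Hochberg adjusted). The heat-inducible genes Hspa1b (0.85) and Hspa1a (0.21) also overlapped, and as their sequences are nearly identical their reads may not have been separable. Hspa12a (-0.24) was the 1 gene of this list that was lower without overlap. The list of 13 heat-inducible chaperones, which shares several of these genes, had a median of 0.12 with Hspb1 (0.37) as its only gene higher without overlap and 2 genes, Hspa8 and Hspa1b, higher at an unadjusted p under 0.05.

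The 13 other DNAJA and DNAJB genes had a median of -0.16, with 4 lower without overlap and 0 higher, where 14.1% and 11.9% of all genes tested were. Dnaja4 had 50.6, 96.7 and 45.5 CPM in wild type and 37.2, 40.5 and 35.5 CPM in Mov10-/- libraries (log2 fold change -0.77, SE 0.28), with wild type replicate 2 highest as in Hspa1l, and the log2 fold change was -0.35 without that library. Dnajb4 (-0.33) and Dnajb14 (-0.19) differed less. Against 14.1% lower and 11.9% higher over all genes tested, 5 of the 28 DNAJC genes were lower and 3 higher without overlap, with a median of 0.0086. Dnajc5b, a cysteine string protein gene known from testis, had the largest fold change of them, with 18.6, 42.2 and 9.99 CPM in wild type and 1.86, 6.78 and 2.96 CPM in Mov10-/- libraries (-2.65, SE 0.65, adjusted p = 0.150, edgeR's quasi-likelihood test, Benjamini-Hochberg adjusted). Without wild type replicate 2 its log2 fold change was -1.93. Dnajc22 (-1.44, not tested without that library) and Dnajc28 (-0.36) were lower as well without overlap. Dnajc22 passed the filter only through the wild type libraries, with 1.18 to 3.15 CPM there and at most 0.82 CPM in Mov10-/- libraries. It had to differ, so its place in these counts supports nothing.

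The remaining families stayed near the median of all genes. The 7 HSP90, HSP60 and HSP10 genes had a median of 0.12, with Hsp90ab1 (0.25) higher without overlap and Cct6b (-0.32) and Hspd1 (0.18) overlapping. The 9 tested small heat shock genes had a median of 0.022, and among them Odf1 (-1.72), a protein of the sperm tail's outer dense fibres that is also among the elongating spermatid markers, was lower at an unadjusted p under 0.05 with overlap (-1.13 without wild type replicate 2, where p was above that threshold), while Hspb7 (-0.58) and Hspb1 (0.37) were not. The 18 cochaperones had a median of 0.083, with 4 higher without overlap and 1 lower, where 11.9% and 14.1% of all genes tested were. The 3 cochaperones with the smallest p in the quasi-likelihood test were Cdc37 (0.31), Stub1 (0.23) and Fkbp5 (0.21). Of these, Cdc37 and Stub1 were higher without overlap and Fkbp5 overlapped. The 5 other heat shock factor genes had a median of -0.0023 and no gene without overlap, with Hsbp1l1 at -0.37, Hsf4 at 0.63 and Hsbp1 at -0.092.

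Known partners of Hspa2 and Dnajb13 were listed separately. Of 7 partners and clients of HSPA2, the transition protein genes Tnp2 (-5.34, lower without overlap) and Tnp1 (-3.38, overlapping) were lower at an unadjusted p under 0.05, both also elongating spermatid markers, whereas the list's median was 0.065 and Ccnb1, the cyclin partner of CDK1, was at -0.19. Of 9 radial spoke partners of DNAJB13, Ropn1 (-2.50) was lower without overlap, from 30.5, 63.0 and 18.4 CPM in wild type to 3.60, 11.9 and 4.81 CPM in Mov10-/- libraries. Without wild type replicate 2 the log2 fold changes were -3.55 for Tnp2, -2.18 for Tnp1 and -1.89 for Ropn1. Nme5 (-0.28) and Rsph3a (0.34) overlapped, and the list's median was -0.12.

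**Figure D5:**
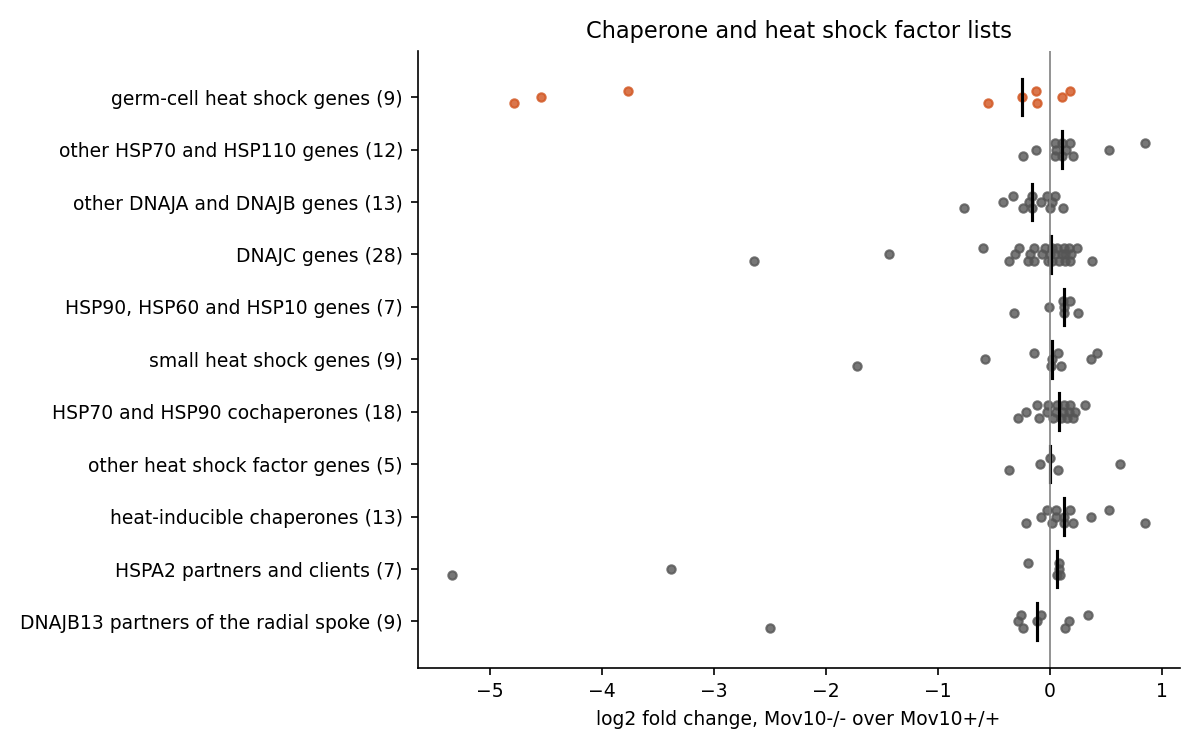
Log2 fold change, Mov10-/- over Mov10+/+, of each tested gene in the germ-cell heat shock genes (orange) and in 10 lists of other chaperones, factors and partners (grey), with the number of tested genes in brackets and a black bar at each median. 3 of the 9 germ-cell genes lie below -3, while the medians of the other lists lie between -0.16 and 0.12.

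MOV10 CLIP-seq, in which RNA linked by ultraviolet light to the MOV10 protein is recovered from wild type P21 testis, held 3404 to 4934 reads on genes in each of 4 libraries (replicates 1, 2, 3 and 5). In these libraries 99.5% to 99.6% of reads were not aligned. Of the uniquely aligned reads, 81.3% to 90.4% were assigned to no gene by HTSeq. Such reads need not lie outside genes. Introns or the opposite strand may hold them, as the counting settings are not given. Counts of replicates 1, 2 and 3 agreed more closely than sampling noise between separate libraries would give. Their chi-square over degrees of freedom was 0.219 to 0.237, where noise alone gives about 1, against 1.63 to 1.93 with replicate 5. Replicates 1, 2 and 3 were therefore counted as 1, and why they agree so closely was not tested. With these 3 averaged into 1 and replicate 5 added, the 10 genes together had 7.33 reads, and no gene had more than 2 reads in any library. Hsf5 had 2, 2, 1 and 1 reads, Hsf1 had 1, 2, 1 and 0, and Hspa2 had 1, 1, 1 and 0 in replicates 1, 2, 3 and 5. Dnajb7 and Dnajb8 had 1 read each, in replicate 5, Hsf2 had 1, and Hspa1l, Hspa4l, Dnajb3 and Dnajb13 had 0, where a count of 0 allows up to 3 reads. Reads in proportion to wild type RNA levels would have given, on the same averaged basis, 1.84 for Hspa2, 1.60 for Hsf5, 0.74 for Hsf1 and 0.36 for Hspa1l, where 1.00, 2.67, 1.33 and 0 were counted, so that binding of these transcripts above or below their level was not detectable at this depth.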

How the data were processed

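RNA-seq was made from poly(A)-selected RNA of P21 testes (TruSeq Stranded mRNA). The authors trimmed reads, aligned them to mm10 with STAR and deposited raw read counts on each Ensembl v99 gene (HTSeq); versions, and whether counting used strand, are not given in the sources used here. The count files of CLIP-seq hold the same gene list. The depth was 5083407 to 9230540 reads on genes (RNA-seq) and 3404 to 4934 (CLIP-seq); counting limits cover counting error only. Names, exons and coordinates came from GENCODE M21 (mm10), promoters from RefSeq (GRCm38.p6); 55154 of the 55421 genes matched.

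Genotypes were compared with edgeR 4.0.16 in R 4.3.3 (TMM, quasi-likelihood, Benjamini-Hochberg). Genes tested were above 1 CPM, before TMM scaling, in at least 3 of 6 libraries. Called was an adjusted p under 0.05 and a fold over 2. SEs are the log2 fold change over the square root of F. Ratios used an exact permutation test. DESeq2 1.42.0, limma 3.58.1 (voom), edgeR's exact and likelihood ratio tests, other normalizations, no filter, a replicate block and each library left out were tried. Fits were tested on simulated data. The members, gene lists and tests were chosen with earlier results of these data known. Named genes were the members, Mov10, Hspa1a, Hspa1b, Hspa8, genes sharing exons with a member, called list genes and the 3 genes of each chaperone list with the smallest p; neighbours of Hspa4l, and the examples Fos and Egr1, stand outside that rule. Labels do not say whether testes of a genotype came from separate litters, so p-values measure only the spread between these samples. Cell type lists are described by counts and sums. Ratios and figures were computed in Python 3.11.15.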

Additional observations from a re-analysis of the deposited data

How the results depend on the processing

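Of 132 fold changes of the tested genes under 15 alternatives, 117 kept their direction and their side of the threshold, 10 passed it and 5 changed sign; Dnajb7 could not be fitted when a wild type library was left out, because it then missed the filter. The members called went from 0 to 3 (Hspa1l, Dnajb7 and Dnajb8) with edgeR's exact test, with its likelihood ratio test and with DESeq2, and stayed at 0 with each library left out. All genes called went from 1 to 1101 with the exact test, 1187 with the likelihood ratio test, 1039 with DESeq2, 2 with voom, 6 with the library total alone and 10 without a filter, and ranged from 0 to 1 with each library left out (0 without Mov10-/- replicate 3 or 4). The cause was not tested. With each library left out the log2 fold change ranged from -0.050 to 0.30 for Hspa2, -0.31 to 0.033 for Dnajb3, -0.0092 to 0.20 for Hsf1, -0.28 to 0.0064 for Hsf5, -4.27 to -1.99 for Hspa1l, -5.14 to -4.47 for Dnajb7, -5.23 to -2.59 for Dnajb8 and -0.68 to -0.32 for Dnajb13. The log2 ratio to Hspa2 differed by -3.87 to -2.19 for Hspa1l and by -0.32 to -0.21 for Dnajb3 with each library left out, and by -2.89 and -0.27 with 5 counts added.

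The genotypes share the replicate numbers 2 and 3, which name separate mice. Labels do not say whether equal numbers mark a shared litter or batch. Deviations from the group mean correlated at -0.47 and -0.35 for same-numbered libraries, and at -0.26 to 0.46 for other pairs. With so few libraries these values cannot decide whether the numbers pair the mice. With a replicate block in the fit 184 of the 20240 genes tested were called, 1 of them a member, Hspa1l. Its log2 fold change was -3.26 (adjusted p = 0.0431, edgeR's quasi-likelihood test, Benjamini-Hochberg adjusted). Libraries whose replicate number occurs in only 1 genotype add nothing to the genotype difference in that fit. That difference thus rests on replicates 2 and 3 of each genotype, and the call is not support from all libraries. The mean of the 2 same-numbered differences in log2 ratio was -3.43 for Hspa1l and -0.35 for Dnajb3.

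Depth limits the genes with few reads: Dnajb7 and Dnajb8 rest on 13 and 14 reads in the Mov10-/- libraries together, and Hspa4l on 11.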
